A study of Mus musculus with 574 samples.

Results

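The radial glia genes Nes, Vim, Fabp7, Slc1a3, Msi1, Ttyh1, Sparc, Sulf1, Spon1 and Zfp36l1 were followed through the developing mouse ventral midbrain. They are 10 of the 23706 genes in the deposited table of pooled cells and 10 of the 25489 genes in that of single cells. The 10 genes were chosen from their levels in early and late progenitors, across stages and GFP classes, with results from these same libraries already known. Their differences between those groups are therefore given as descriptions, without p-values, and the counts of the 10 that pass a threshold support nothing beyond the description.

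The embryos were C57BL/6 mice heterozygous for Lmx1a-EGFP, in which green fluorescent protein (GFP) marks cells that express the floor plate transcription factor gene Lmx1a. All libraries, GFP negative ones included, come from this heterozygous background. Pools of 100 cells and single cells were sequenced by Smart-seq2, which copies whole transcripts into cDNA. There were 6 pools each of GFP positive cells at E10.5 (E for embryonic day), GFP negative cells at E10.5, GFP positive cells at E13.5 and GFP negative cells at E13.5. Replicate numbers of pools were assigned here within each group, are not in the labels and match no pools across groups. The 550 single cells cover E10.5, E11.5, E12.5 and E13.5, and their labels give no GFP class. No embryo or litter is named in the labels, so p-values measure only how these pools vary, and that variation may be technical. The single cells of a stage are 1 sample.

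Radial glia are the elongated progenitor cells that line the ventricle of the developing brain. They divide to renew themselves and to produce neurons, and young neurons migrate along their fibres. In the ventral midline of the midbrain radial glia form the floor plate that gives rise to dopamine neurons. They descend from neuroepithelial cells, and as development proceeds they take on genes that are shared with astrocytes. Nes and Vim encode intermediate filaments of progenitor cells, nestin and vimentin. Fabp7 encodes the brain lipid-binding protein and Slc1a3 the glutamate transporter GLAST, both classical markers of radial glia and later of astrocytes. Ttyh1 encodes a membrane protein of the tweety family. Msi1 encodes Musashi, an RNA-binding protein of neural stem cells, and Zfp36l1 an RNA-binding protein that promotes the decay of messenger RNAs with AU-rich elements. Sparc, Sulf1 and Spon1 act outside the cell: SPARC binds extracellular matrix, Sulf1 removes sulfate groups from heparan sulfate, and Spon1 (F-spondin) is a matrix-attached protein known from the floor plate.

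RefSeq (GRCm38.p6) start sites were found for 7 of the 10 genes, and the 250 bases before the start are printed for 5 of them, read 5′ to 3′ on the gene's own strand. Nes, Vim and Zfp36l1 are shown because their levels moved together across the pools, and Fabp7 and Ttyh1 because they were higher at the later stage in GFP positive pools. The regions are chr3:87970843-87971092 (plus strand) for Nes, chr2:13574061-13574310 (plus strand) for Vim, chr12:80113014-80113263 (minus strand) for Zfp36l1, chr10:57784673-57784922 (plus strand) for Fabp7 and chr7:4119280-4119529 (plus strand) for Ttyh1. Capitals mark matches to 3 core promoter motifs on either strand: the GC box GGGCGG, the CCAAT box CCAAT and the TATA box TATAAA.
Nes: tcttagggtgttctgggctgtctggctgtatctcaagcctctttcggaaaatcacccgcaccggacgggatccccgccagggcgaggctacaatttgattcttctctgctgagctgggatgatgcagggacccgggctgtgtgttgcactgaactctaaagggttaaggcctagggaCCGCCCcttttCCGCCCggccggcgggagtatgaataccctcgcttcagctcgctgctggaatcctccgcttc
Vim: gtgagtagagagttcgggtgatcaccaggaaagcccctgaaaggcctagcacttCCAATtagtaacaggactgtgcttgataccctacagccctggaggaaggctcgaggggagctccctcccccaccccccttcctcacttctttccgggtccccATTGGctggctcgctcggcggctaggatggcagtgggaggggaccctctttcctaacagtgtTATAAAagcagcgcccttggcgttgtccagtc
Zfp36l1: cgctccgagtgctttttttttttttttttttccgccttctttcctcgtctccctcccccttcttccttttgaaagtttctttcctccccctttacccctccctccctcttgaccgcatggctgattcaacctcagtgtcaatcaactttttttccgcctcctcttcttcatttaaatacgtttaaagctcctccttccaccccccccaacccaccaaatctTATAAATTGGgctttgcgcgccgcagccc
Fabp7: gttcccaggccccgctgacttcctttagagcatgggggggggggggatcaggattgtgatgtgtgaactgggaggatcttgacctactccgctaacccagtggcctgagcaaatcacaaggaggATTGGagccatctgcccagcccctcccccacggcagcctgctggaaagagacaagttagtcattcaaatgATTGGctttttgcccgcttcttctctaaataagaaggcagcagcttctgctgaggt
Ttyh1: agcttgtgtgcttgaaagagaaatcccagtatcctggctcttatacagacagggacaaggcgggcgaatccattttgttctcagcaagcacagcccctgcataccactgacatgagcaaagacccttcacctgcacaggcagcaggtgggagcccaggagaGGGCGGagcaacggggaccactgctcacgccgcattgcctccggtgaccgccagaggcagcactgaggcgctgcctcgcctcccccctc
Vim and Zfp36l1 each held a TATA box close to the start, 32 to 27 bases before it in Vim and 29 to 24 in Zfp36l1. In Zfp36l1 that match shares 1 base with a CCAAT box on the other strand. Fabp7 held 2 CCAAT boxes and no TATA box, Nes held 2 GC boxes, and Ttyh1 held 1 GC box. Of 32851 promoter windows of this length, 32.7% held the GC box, 33.9% the CCAAT box and 12.4% the TATA box. Motifs of 4 kinds of factor known from progenitors were searched first, on both strands: GTGGGAA (RBPJ), ACAATG or ACAAAG (SOX), the palindromic NFI motif and ATGCAAAT (POU octamer). No match occurred in the windows of Nes, Vim, Fabp7, Slc1a3, Ttyh1, Sparc or Zfp36l1, while 5.42%, 25.2%, 0.037% and 1.60% of all windows held them. The 3 core motifs were added after that result was seen.

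Levels are RPKM, reads per kilobase of transcript and per M (mega) reads. From the steps between low values, a pool held an estimated 1.30 to 3.67 M reads and a cell 0.403 to 7.499 M, and these estimates are rough because the files hold no counts. EGFP followed the labels, with a lowest value of 51.1 RPKM among GFP positive pools and a highest of 5.82 among GFP negative pools. Differences between pools are on the log2(RPKM + 1) scale with their standard error (SE), from limma fitted over 15871 genes, and a gene is called at an adjusted p under 0.05. A pool gives the average of 100 cells, so fewer cells of a type and less RNA per cell cannot be told apart. Neuronal transcripts were at a higher level in the later pools. The summed level of 12 pan-neuronal genes had medians of 451 RPKM in E10.5 GFP positive and 2447 in E10.5 GFP negative pools. In E13.5 GFP positive and GFP negative pools the medians were 5218 and 5766. The sum over the 10 radial glia genes had medians of 2843, 2703, 1820 and 638 RPKM in the same order. The part of the cell mixture in the levels that follow was not tested.

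**Figure D1:**
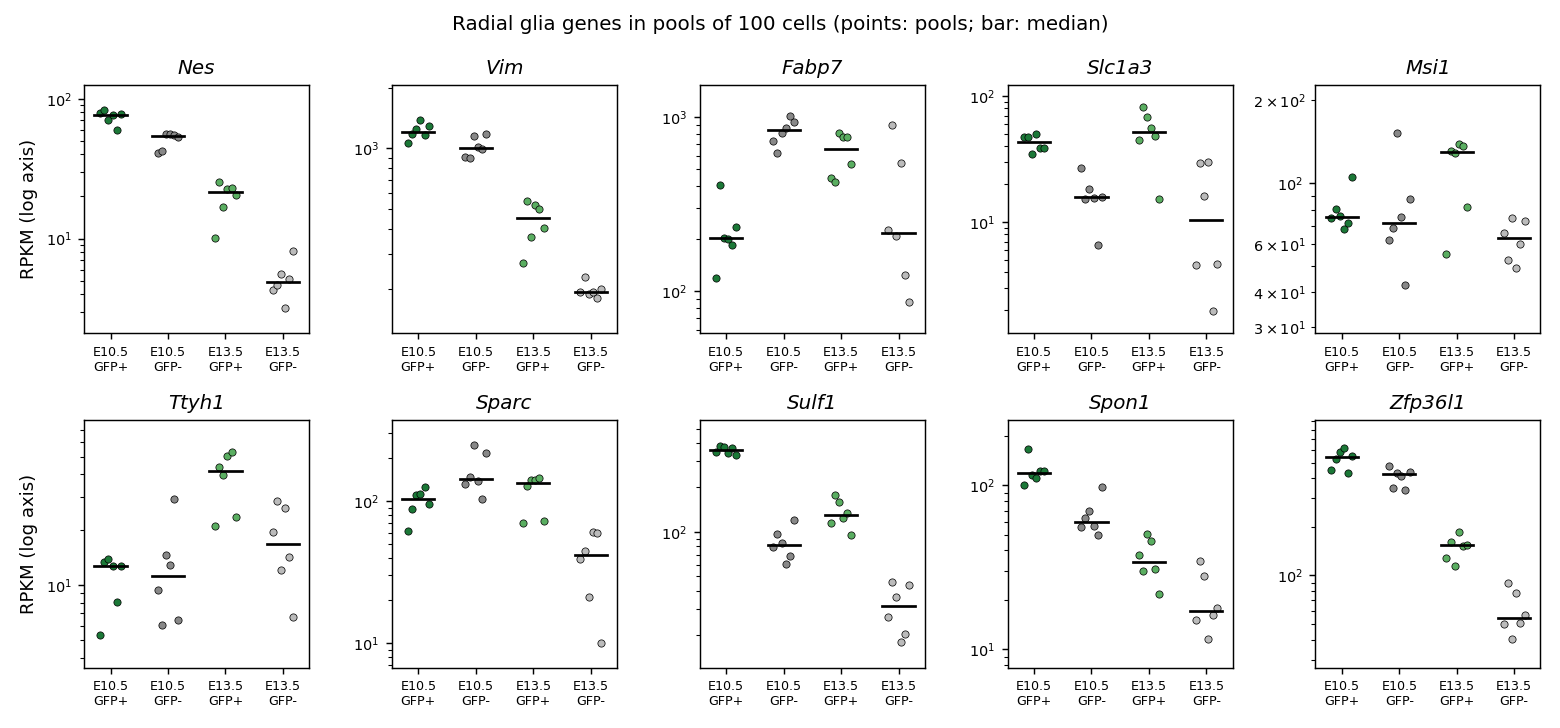
Levels of the 10 genes in 24 pools of 100 cells, with RPKM on log axes that differ between panels. Points are pools and bars are the median of 6 pools in each of the groups named on the horizontal axis. Nes, Vim and Zfp36l1 step down from E10.5 to E13.5, and Fabp7 is lowest in E10.5 GFP positive pools, with a median of 202 RPKM.

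The filament genes Nes and Vim were highest in the early pools. Nes (chromosome 3, 87971078 to 87980451, plus strand, GRCm38) had a lowest, median and highest level of 59.5, 76.8 and 83.7 RPKM in E10.5 GFP positive pools and of 41.2, 54.1 and 56.04 in E10.5 GFP negative pools. At E13.5 it had 10.2, 21.6 and 25.4 RPKM with GFP and 3.17, 4.88 and 8.14 without. All 4 groups were apart from each other, in the order E10.5 GFP positive, E10.5 GFP negative, E13.5 GFP positive and E13.5 GFP negative. The log2 difference between stages was -1.90 ± 0.19 with GFP and -3.09 ± 0.19 without. Between GFP classes it was 0.55 ± 0.19 at E10.5, which was not called although the pools did not overlap, and 1.74 ± 0.19 at E13.5.

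Vim (chromosome 2, 13573927 to 13582826, plus strand), the most abundant of the 10 transcripts at E10.5 by median RPKM, followed the same order. It ranged from 1065 to 1376 RPKM (median 1212) in E10.5 GFP positive pools and from 899 to 1180 (median 1004) in E10.5 GFP negative pools, so the early groups overlapped. In the later pools it ranged from 271 to 546 (median 451) with GFP and from 182 to 232 (median 194) without. Every E13.5 pool lay below every E10.5 pool, and the later GFP classes did not overlap. The stage difference was -1.52 ± 0.13 with GFP and -2.36 ± 0.13 without. The GFP difference was 0.25 ± 0.13 at E10.5 and 1.09 ± 0.13 at E13.5.

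Zfp36l1 (chromosome 12, 80107754 to 80113013, minus strand), the mRNA decay factor, had nearly the course of the filament genes. Its lowest, median and highest levels were 429, 539 and 615 RPKM in E10.5 GFP positive pools and 339, 422 and 474 in E10.5 GFP negative pools. They were 113.8, 153.4 and 187 RPKM in E13.5 GFP positive pools and 40.2, 54.2 and 89.4 in E13.5 GFP negative pools. The early GFP classes overlapped and the later ones did not. The stage differences were -1.81 ± 0.15 with GFP and -2.76 ± 0.15 without, and the GFP differences 0.37 ± 0.15 at E10.5 and 1.32 ± 0.15 at E13.5.

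Msi1 (chromosome 5, 115429599 to 115455698, plus strand), the other RNA-binding protein gene, differed by less than 1 on the log2 scale in all 4 comparisons. It ranged from 68.3 to 105.2 RPKM (median 75.4) in E10.5 GFP positive pools and from 42.7 to 151.9 (median 71.8) in E10.5 GFP negative pools. At E13.5 the ranges were 55.3 to 138.5 (median 130) with GFP and 49.1 to 74.7 (median 63.2) without. Each group overlapped every other one. In E13.5 GFP positive pools the lowest pool, at 55.3 RPKM, lay within the range of the GFP negative pools and the other 5 above it. Of its 4 differences between groups, only the GFP difference at E13.5, 0.77 ± 0.23, was called, and that call was lost in 8 of 24 fits with 1 pool left out.

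The matrix genes Sulf1 and Spon1 differed both by GFP class and by stage. Sulf1 (chromosome 1, 12692277 to 12861192, plus strand) had a lowest, median and highest level of 330, 357 and 383 RPKM in E10.5 GFP positive pools and of 60.4, 81.6 and 121.2 in E10.5 GFP negative pools. At E13.5 it had a median of 129.4 and a highest level of 179 RPKM with GFP (134.4 ± 30.24, mean and SD, n = 6), and a lowest, median and highest level of 18.02, 31.3 and 45.7 without. The GFP classes did not overlap at either stage, while the E13.5 GFP positive and E10.5 GFP negative pools did. The GFP difference was 2.10 ± 0.20 at E10.5 and 2.11 ± 0.20 at E13.5, and the stage difference -1.43 ± 0.20 with GFP and -1.44 ± 0.20 without.

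Spon1 (chromosome 7, 113765998 to 114043370, plus strand) had a smaller GFP difference and a stage difference of like size in both classes. It ranged from 99.9 to 167.2 RPKM (median 118.2) in E10.5 pools with GFP and from 49.7 to 98.1 (median 59.8) in those without. At E13.5 it ranged from 21.8 to 50.6 (median 34.1) with GFP and from 11.6 to 34.7 (mean 20.55 ± 8.84, SD, n = 6) without. The early GFP classes did not overlap and the later ones did. The stage differences were -1.78 ± 0.22 and -1.68 ± 0.22 with and without GFP, and the GFP differences 0.92 ± 0.22 at E10.5 and 0.82 ± 0.22 in the later pools. The later one lost its call in 5 of 24 fits with 1 pool left out.

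Sparc (chromosome 11, 55394500 to 55423183, minus strand), the third matrix gene, differed between stages mainly in GFP negative pools. Its lowest, median and highest levels were 61.8, 103.5 and 126.6 RPKM in E10.5 pools with GFP and 103.98, 143.4 and 250 in those without. They were 70.3, 134.3 and 145.96 RPKM in E13.5 GFP positive pools and 10.1, 41.8 and 60.6 in E13.5 GFP negative pools. The first 3 groups overlapped each other, and E13.5 GFP negative pools lay below all of them. The stage difference was 0.20 ± 0.32 with GFP, not called, and -2.20 ± 0.32 without. SPARC is also made by mesenchyme and vessels, and 8 mesenchyme and pericyte genes summed to 118.5 to 294 RPKM in E10.5 GFP negative pools, against 6.38 to 32.96 in E10.5 GFP positive pools, 0.026 to 4.23 in E13.5 GFP positive pools and 0.426 to 6.13 in E13.5 GFP negative pools. In E10.5 GFP negative pools none of the 8 was at 0 throughout, in E13.5 GFP positive pools Col3a1, Dcn and Twist1 were, and in E13.5 GFP negative pools Twist1 was. The part of these cells in the Sparc and Vim levels of E10.5 GFP negative pools was not tested.

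Fabp7 (chromosome 10, 57784881 to 57788450, plus strand) went in opposite directions with stage in the GFP classes. Its lowest, median and highest levels were 119.2, 202 and 409 RPKM in E10.5 GFP positive pools and 622, 836 and 1017 in E10.5 GFP negative pools. They were 423, 653 and 809 RPKM in E13.5 GFP positive pools and 86.5, 217 and 901 in E13.5 GFP negative pools. The early GFP classes did not overlap, and every E13.5 GFP positive pool lay above every E10.5 GFP positive pool. E13.5 GFP negative pools were the most scattered and overlapped all other groups. The stage difference was 1.52 ± 0.38 with GFP and -1.70 ± 0.38 without, and the GFP difference -1.96 ± 0.38 at E10.5 and 1.26 ± 0.38 at E13.5. This E13.5 call was lost in 8 of 24 fits with 1 pool left out.

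Slc1a3 (chromosome 15, 8634124 to 8710764, minus strand) was higher with GFP at both stages. It ranged from 34.8 to 50.1 RPKM (median 43.1) in E10.5 GFP positive pools and from 6.63 to 26.9 (median 15.7) in E10.5 GFP negative pools, without overlap. In the later pools it ranged from 15.3 to 81.6 (median 51.8) with GFP and from 1.98 to 29.8 (median 10.46) without, with overlap. Its GFP difference was 1.42 ± 0.46 at E10.5, a call lost in 10 of 24 fits with 1 pool left out, and 2.15 ± 0.46 at E13.5. Neither stage difference was called (0.14 ± 0.46 with GFP and -0.60 ± 0.46 without).

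Ttyh1 (chromosome 7, 4119408 to 4136708, plus strand) was low in all early pools. It ranged from 5.29 to 13.7 RPKM (median 12.7) in E10.5 pools with GFP and from 6.04 to 29.4 (median 11.1) in those without. At E13.5 it ranged from 20.9 to 53.01 (median 41.7) with GFP and from 6.64 to 28.7 (median 16.7) without. Among GFP positive pools the stages did not overlap, and every other pair of groups did. The stage difference was 1.71 ± 0.35 with GFP and 0.47 ± 0.35 without. The GFP difference at E13.5, 1.13 ± 0.35, lost its call in 16 of 24 fits with 1 pool left out.

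**Figure D2:**
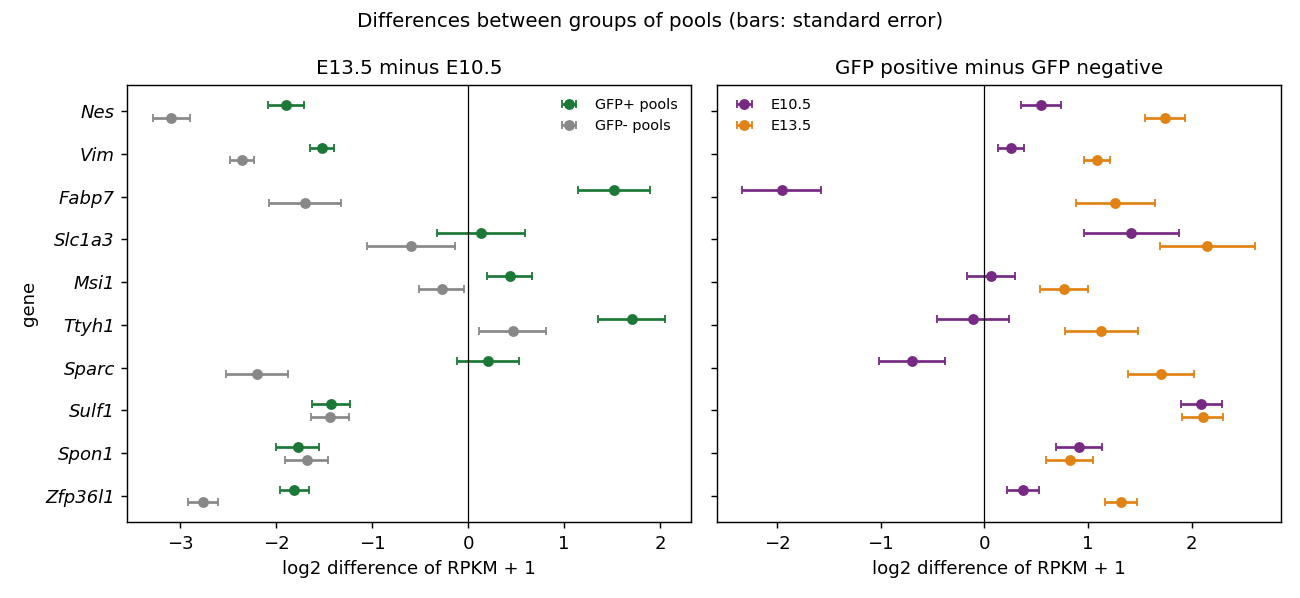
Differences in log2(RPKM + 1) for the 10 genes, E13.5 minus E10.5 in each GFP class (left) and GFP positive minus GFP negative at each stage (right). Points are estimates and bars the SE from limma over 24 pools. At E13.5 all 10 estimates lie above 0, and with stage Fabp7 and Sparc part between the GFP classes.

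Across the 10 genes the order of abundance changed between early and late GFP positive pools. At E10.5 the median levels ran Vim, Zfp36l1, Sulf1, Fabp7, Spon1, Sparc, Nes, Msi1, Slc1a3 and Ttyh1. Vim stood above Zfp36l1, Zfp36l1 above Sulf1, Nes above Slc1a3 and Slc1a3 above Ttyh1 in every pool, whereas Fabp7 overlapped Sulf1 and Spon1, and Sparc overlapped Spon1, Nes and Msi1. At E13.5 the order was Fabp7, Vim, Zfp36l1, Sparc, Msi1, Sulf1, Slc1a3, Ttyh1, Spon1 and Nes. Fabp7 and Vim overlapped each other and stood above the rest in every pool, and Sulf1 stood above Slc1a3 in every pool. The other neighbours in that order overlapped.

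By count, 2 of the 10 genes were called higher (Fabp7 and Ttyh1) and 5 lower (Nes, Vim, Sulf1, Spon1 and Zfp36l1) at E13.5 in GFP positive pools, where 22.1% of all genes tested were called higher and 29.6% lower. In GFP negative pools 0 were called higher and 7 lower, against 19.7% and 26.9% of all genes. At E10.5, GFP positive pools had 3 of the 10 called higher (Slc1a3, Sulf1 and Spon1) and 1 lower (Fabp7), where 4.51% of all genes were called higher and 8.64% lower. At E13.5 all 10 were called higher with GFP, where 3.42% of all genes were called higher and 3.74% lower. Without GFP positive replicate 3 or 4, or GFP negative replicate 1 or 5, of that stage, 6 of the 10 were called, and without the 7 pools with over 1% globin transcripts 7 were, with Fabp7, Ttyh1 and Spon1 no longer called. Counted instead by pools that do not overlap, 2 of the 10 were higher and 5 lower at E13.5 with GFP (12.8% and 17.1% of all genes), and 0 were higher and 6 lower without GFP (11.3% and 14.3%). Between GFP classes, 4 were higher and 1 lower with GFP at E10.5 (3.33% and 4.26% of all genes), and 5 were higher and 0 lower at E13.5 (1.82% and 2.18%). These contrasts are the ones the genes were chosen on, so nothing is read from the counts. The median log2 difference of the 10 was -0.65, -1.69, 0.31 and 1.29 in these 4 comparisons, and that of all genes tested -0.14, -0.11, -0.01 and -0.03. The comparisons share groups of pools and are not independent of each other.

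The GFP difference itself changed with stage for 5 of the 10 genes, all of them towards GFP positive pools at E13.5, where 3.93% of all genes were called in that direction and 1.90% in the other. The signed change from E10.5 to E13.5 was 3.22 ± 0.54 for Fabp7, 2.41 ± 0.46 for Sparc, 1.19 ± 0.27 for Nes, 0.95 ± 0.22 for Zfp36l1 and 0.83 ± 0.18 for Vim. For Fabp7 the sign of the GFP difference turned, from -1.96 to 1.26. The Sparc estimate went from -0.70 ± 0.32, not called, to 1.71 ± 0.32, and the other 3 were above 0 at both stages. The estimates were 1.24 ± 0.49 for Ttyh1, 0.73 ± 0.65 for Slc1a3, 0.71 ± 0.33 for Msi1, 0.01 ± 0.28 for Sulf1 and -0.09 ± 0.32 for Spon1, none of them called. Globin transcripts took more than 1% of the summed RPKM in 5 of 6 E10.5 GFP negative pools and in 2 of 6 E13.5 GFP negative pools, so red blood cell RNA moved with GFP class. Without those 7 pools, which leaves 1 E10.5 GFP negative pool that is assumed to vary like the others, the estimates were 2.97 for Fabp7, 2.26 for Sparc, 1.39 for Nes, 0.81 for Zfp36l1 and 0.78 for Vim, and 0 of the 10 were called. At E10.5 the GFP differences without them were -2.02 for Fabp7, 2.54 for Sulf1, 1.39 for Slc1a3 and 1.09 for Spon1, of which the one of Sulf1 was called. The summed level of 7 microglia genes also moved with these groups, with a median of 174.2 RPKM (0 to 306) in E10.5 GFP negative pools and at most 0.193 in E10.5 GFP positive pools, where 5 of the 7 were at 0 throughout. At E13.5 they summed to 0 to 252 RPKM (median 0.184) without GFP and to at most 0.536 with GFP, where C1qb, C1qc and Ptprc were at 0. The 7 endothelial genes had a median of 21.05 RPKM (2.33 to 111.2) in E10.5 GFP negative and 2.08 (0.872 to 3.61) in E10.5 GFP positive pools, where Tek and Cldn5 were at 0. At E13.5 the endothelial sum ranged from 0 to 65.4 RPKM without GFP and from 3.98 to 9.57 with GFP, where Cdh5 and Tek were at 0. The part of these cells in the GFP differences was not tested.

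The lists of paralogs and of other genes that follow were also chosen with earlier results of these data known. Some of their genes are named by the size of their difference. The adjusted p-values printed for them, from limma over all genes tested, are therefore descriptions and support nothing beyond that. Paralogs of the 10 genes did not repeat their pattern gene for gene. Of 12 family members, all tested, 6 were called higher and 2 lower at E13.5 among pools with GFP (22.1% and 29.6% of all genes). Among pools without GFP 5 were higher and 3 lower (19.7% and 26.9% of all genes). With GFP 0 were higher and 3 lower at E10.5 (4.51% and 8.64% of all genes), and 0 higher and 2 lower at E13.5 (3.42% and 3.74%). Fabp5, a fatty acid-binding protein gene, was lower with GFP at both stages (-0.64 ± 0.08, adjusted p = 1.5e-06 at E10.5, and -0.30 ± 0.08, adjusted p = 0.0187 at E13.5), with 111.7, 181, 176.05 and 217 RPKM as medians of E10.5 GFP positive, E10.5 GFP negative, E13.5 GFP positive and E13.5 GFP negative pools. Fabp3 was higher at E13.5 with GFP by 3.32 ± 0.42 (limma adjusted p = 2.54e-07) and without by 2.62 ± 0.42 (adjusted p = 1.21e-05). Among glutamate transporters, Slc1a2 (GLT-1) was higher at E13.5 by 1.42 ± 0.20 with GFP (adjusted p = 1.7e-06) and 0.74 ± 0.20 without (adjusted p = 0.00415), and Slc1a1 by 1.64 ± 0.33 (adjusted p = 0.000178) and 2.26 ± 0.33 (adjusted p = 3.51e-06).

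Sparcl1, the relative of Sparc, was nearly absent from E10.5 GFP positive pools, with a median of 0.237 RPKM against 35.1 in E10.5 GFP negative pools (-4.36 ± 0.48, limma adjusted p = 2.02e-07). It had medians of 4.13 and 14.2 RPKM in E13.5 GFP positive and GFP negative pools, and its stage difference was 1.37 ± 0.48 with GFP (adjusted p = 0.0195) and -1.45 ± 0.48 without (adjusted p = 0.0152). Zfp36 and Zfp36l2, the other decay factors of the family, were lower at E13.5 with GFP (-1.43 ± 0.49, adjusted p = 0.0166, and -1.56 ± 0.30, adjusted p = 0.000101) and without (-1.97 ± 0.49, adjusted p = 0.00169, and -1.94 ± 0.30, adjusted p = 7.21e-06). Ttyh3 was higher at E13.5 in both classes, by 1.20 ± 0.12 (adjusted p = 3.08e-09) and 1.13 ± 0.12 (adjusted p = 1.47e-08). For Msi2, Ttyh2, Sulf2 and Spon2 no difference between groups was called. Sulf2 had medians between 47.3 and 73.8 RPKM in the 4 groups, with a GFP difference of 0.57 ± 0.25 at E10.5 (adjusted p = 0.153).

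Most other genes of progenitors were called lower at E13.5, and most of those called between GFP classes were higher with GFP. A list of 12 neural progenitor genes had 0 called higher and 9 called lower at E13.5 with GFP (22.1% and 29.6% of all genes). Without GFP 1 was higher and 10 were lower (19.7% and 26.9% of all genes). The stem cell factor gene Sox2 had a stage difference of -3.60 ± 0.30 with GFP (limma adjusted p = 1.09e-10), from a mean of 78.03 to 6.24 RPKM, a larger drop than that of Nes or Vim. Hes1, a transcriptional repressor downstream of Notch, had stage differences of -3.56 ± 0.26 with GFP (adjusted p = 9.91e-12) and -3.38 ± 0.26 without (adjusted p = 5.95e-11), and Sox3 of -2.82 ± 0.32 without GFP (adjusted p = 4.39e-08). Cdh2 (N-cadherin) was the gene called higher at E13.5 in GFP negative pools (0.44 ± 0.15, adjusted p = 0.0219). Hes1 and the receptor gene Notch2 were higher with GFP at E10.5 (1.80 ± 0.26, limma adjusted p = 1.12e-05, and 1.39 ± 0.21, limma adjusted p = 2.22e-05). So were 4 other genes of the list, with 1 lower, where 4.51% of all genes were called higher and 8.64% lower. At E13.5 Notch2 and Sox9 were higher with GFP (2.68 ± 0.21, limma adjusted p = 1.15e-09, and 1.71 ± 0.12, limma adjusted p = 1.64e-10). They were again among 6 higher and 1 lower, where 3.42% of all genes were called higher and 3.74% lower. Sox9, a factor of radial glia and of the glial lineage, had medians of 157.96 and 180 RPKM in early and late GFP positive pools, a difference that was not called (0.19 ± 0.12, adjusted p = 0.203).

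Genes of late radial glia and astrocytes were called in both directions with stage. Of 15 such genes 11 were tested, and Gfap, Aqp4, S100b and Hopx did not reach 1 RPKM in 6 pools. With GFP 6 of the 11 were called higher and 1 lower at E13.5, where 22.1% and 29.6% of all genes were, and without GFP 5 were higher and 3 lower, where 19.7% and 26.9% of all genes were. Aldh1l1, an astrocyte enzyme gene, went from 0.863 ± 0.509 RPKM (SD, n = 6) to 14.7 ± 5.78 in GFP positive pools (3.03 ± 0.45, limma adjusted p = 2.89e-06), and Ptprz1 by 2.23 ± 0.20 (adjusted p = 5.26e-10). In GFP negative pools the nuclear factor I genes Nfix and Nfib were higher at E13.5 by 3.20 ± 0.40 (adjusted p = 2.54e-07) and 2.93 ± 0.24 (adjusted p = 2.26e-10). Mfge8 was lower at E13.5 in both classes (-2.61 ± 0.29, adjusted p = 2.47e-08, and -2.94 ± 0.29, adjusted p = 5.49e-09). Between GFP classes 0 genes of the list were higher and 2 lower with GFP at E10.5, where 4.51% and 8.64% of all genes were. At E13.5 the list had 2 higher and 2 lower, against 3.42% and 3.74% of all genes. Among them Fgfr3 was higher with GFP by 2.52 ± 0.35 (limma adjusted p = 1.55e-05). Of 12 cell cycle genes, 12 were lower at E13.5 in each GFP class, where 29.6% of all genes were with GFP and 26.9% without. Their summed level had medians of 2456 and 202 RPKM in early and late GFP positive pools and of 1683 and 169.1 in GFP negative pools. The part of this drop in the lower levels of Nes, Vim, Zfp36l1, Sulf1 and Spon1 was not tested.

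Within the 10 genes, the levels of Nes, Vim and Zfp36l1 moved most closely together across the 24 pools. They had Pearson's r of 0.98 (Nes with Vim), 0.98 (Vim with Zfp36l1) and 0.96 (Nes with Zfp36l1). Spon1 had r of 0.89 with each of Nes, Vim and Zfp36l1, and of 0.85 with Sulf1. Fabp7 and Ttyh1 had r of 0.48, and Ttyh1 and Spon1 of -0.39, the lowest of the 45 pairs. The median over pairs was 0.41, and 39 of 45 were above 0. After the group means were taken off, the median was 0.29 and 38 of 45 were above 0, with 0.70 for Sulf1 and Spon1, 0.69 for Fabp7 and Ttyh1 and 0.67 for Nes and Vim. Within groups Zfp36l1 had r of 0.55 with Vim but 0.06 with Nes. These values describe 24 pools that share 4 groups, and pools also share differences in depth and in cell mixture.

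**Figure D3:**
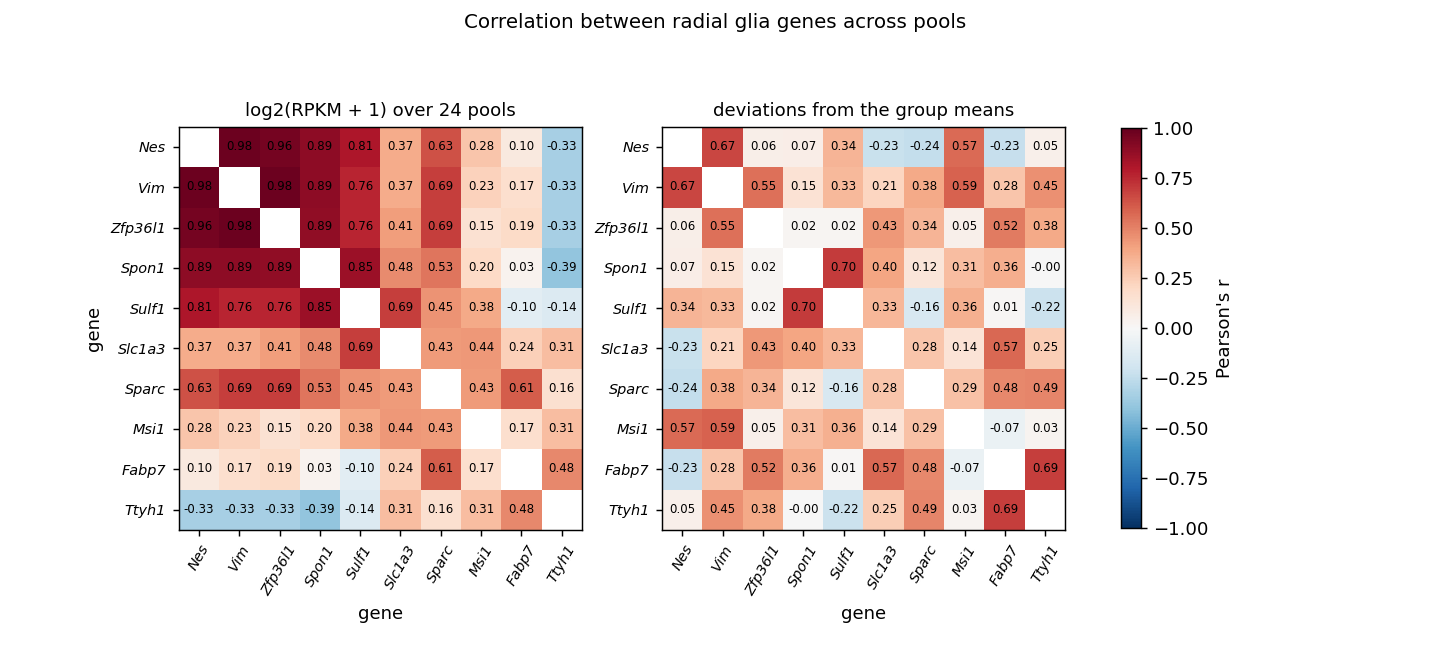
Pearson's r between the 10 genes across 24 pools, from log2(RPKM + 1) (left) and from deviations of each pool from its group mean (right). Red cells are positive and blue cells negative. Nes, Vim and Zfp36l1 form the darkest block on the left, with r from 0.96 to 0.98, and on the right Sulf1 with Spon1 and Fabp7 with Ttyh1 stand out at 0.70 and 0.69.

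For each of the 10, the 3 other genes with the highest Pearson's r over the 24 pools were noted. They were Tgif1, Pls3 and Id3 for Nes (0.97, 0.96 and 0.96), Hadh, Ctnna1 and Ldha for Vim (0.97 each), and Golm1, Crb2 and Lpar6 for Zfp36l1 (0.97 each). For Sulf1 they were Ntn1 (0.96), the netrin gene of the floor plate, Tcf12 and Wls (0.95 each), and for Spon1 Cthrc1 (0.97), Heph and Ctnna1 (0.94 each). For Slc1a3 they were Fam210b (0.87), Whrn (0.86) and Foxj1 (0.81), and for Sparc Axl, Nxn and Surf4 (0.83, 0.83 and 0.81). For Msi1 they were Ddr1 (0.84), Nosip and Cdc23 (0.78 each), for Ttyh1 Surf1 (0.82), Fut8 and Prkca (0.77 each), and for Fabp7 Veph1, Cfl1 and Ppap2b (0.72, 0.72 and 0.70). Fabp7 thus had the weakest likeness to its nearest gene of the 10.

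Single cells separated the genes by cell rather than by pool. A gene was taken as present in a cell at 10 RPKM or more, and cells were gated without use of the 10 genes. The first gate took cells with Sox2 present and Stmn2, a marker of young neurons, absent, and held 53, 11, 8 and 6 cells from E10.5 to E13.5. Because it was small at the late stages, a wider gate with Sox2 or Sox9 present and Stmn2 absent was added after the data were seen. It held 95, 27, 35 and 23 cells, called progenitors here. From E10.5 to E13.5, Sox2 was present in 55.8%, 40.7%, 22.9% and 26.1% of them and Sox9 in 81.1%, 100%, 100% and 100%. From E11.5 on most of these cells thus lacked Sox2 and entered by Sox9, a gene also of the glial lineage. The pan-neuronal gene Tubb3 was present in 45.3%, 66.7%, 74.3% and 52.2%. Shares by stage therefore compare gates of unlike make-up. The neuron gate took cells with Stmn2 present and Sox2 absent, with 8 and 52 cells at E10.5 and E11.5 and with 74.16% and 82.07% of all cells at the following stages. In the progenitor gate Mki67, a proliferation marker, was present in 63.2% of the E10.5 cells and 17.4% of the E13.5 cells. The Notch targets went in opposite directions, with Hes5 present in 36.8% and 86.96% and Hes1 in 76.8% and 47.8%. Nfib was present in 6.32% and 56.5% and Aldh1l1 in 6.32% and 39.1%. In the pools Hes5 was lower at the later stage, with means of 878 and 472 RPKM with GFP and 886 and 262 without. Gfap was present in 0 of 95 and 0 of 23 progenitors, with upper limits of 3.81% and 14.8% (exact 95% Clopper-Pearson intervals, for counting error only). No cell held 3 or more mesenchyme, endothelial or microglia markers, and 1 E12.5 cell of the neuron gate held 3 or more of the red blood cell list.

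Fabp7 was present in a larger share of progenitors at each later stage than at E10.5. It was present in 47.4% of E10.5 progenitors (37.03 to 57.9%), 81.5% of those from E11.5 (61.9 to 93.7%), 94.3% from E12.5 (80.8 to 99.3%) and 91.3% from E13.5 (71.96 to 98.9%). Its median level went from 1.66 RPKM at E10.5 to 751, 1536 and 1136 at the following stages. In this gate the early interval does not meet any of the later ones. In the first gate, on Sox2, the E10.5 interval was 29.8 to 57.7%. It overlapped those of E12.5 (47.35 to 99.7%) and E13.5 (35.9 to 99.6%) but not that of E11.5 (71.5 to 100%).

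Slc1a3 and Ttyh1 also had a larger share at E13.5 than at E10.5. Slc1a3 was present in 33.7% of progenitors from E10.5 (24.3 to 44.1%), 22.2% from E11.5 (8.62 to 42.3%), 37.1% from E12.5 (21.5 to 55.1%) and 82.6% from E13.5 (61.2 to 95.05%). Its E13.5 interval lies above the other 3 in this gate, and those overlap each other. In the first gate the E13.5 interval of Slc1a3 (35.9 to 99.6%) overlapped those of E10.5 (21.5 to 48.3%), E11.5 (10.9 to 69.2%) and E12.5 (15.7 to 84.3%). Ttyh1 was present in 18.9% from E10.5 (11.6 to 28.3%), 40.7% from E11.5 (22.4 to 61.2%), 65.7% from E12.5 (47.8 to 80.9%) and 73.9% from E13.5 (51.6 to 89.8%), with median levels of 0, 2.08, 151.8 and 345 RPKM.

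Msi1 and Vim were present in nearly every progenitor at every stage. Msi1 was present in all 95, 27, 35 and 23 cells, and Vim in all but 1 cell at E12.5. The median of Vim was 1790, 1581, 1967 and 2116 RPKM from E10.5 to E13.5, so it did not show the lower level of the late pools, and that of Zfp36l1 was 556, 377, 517 and 636. Nes was present in 91.6% at E10.5 (84.1 to 96.3%), 92.6% at E11.5 (75.7 to 99.1%), 65.7% at E12.5 (47.8 to 80.9%) and 78.3% at E13.5 (56.3 to 92.5%). Its medians were 107.8, 152.1, 87.4 and 88.1 RPKM. In this gate the E12.5 interval of Nes lies below that of E10.5, and the E13.5 one overlaps it. In the first gate the E10.5 interval of Nes (84.3 to 98.8%) overlapped those of E12.5 (47.35 to 99.7%) and E13.5 (35.9 to 99.6%). In the pools Nes, Vim and Zfp36l1 were lower at E13.5 in both GFP classes, while the share of cells in the progenitor gate went from 69.3% of the earliest cells to 15.9% of those at E13.5. The part of that share in the pool levels was not tested.

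Among the matrix genes, Sulf1 was present in 90.5% of progenitors from E10.5 (82.8 to 95.6%), 51.9% from E11.5 (31.9 to 71.3%), 71.4% from E12.5 (53.7 to 85.4%) and 60.9% from E13.5 (38.5 to 80.3%). Its median level in the progenitors with and without it was nevertheless 320 RPKM at E10.5 and 492 at E13.5. Spon1 was present in 66.3% at E10.5 and 56.5% at E13.5, and Sparc in 63.2% and 78.3%, with intervals that overlap for both genes. A progenitor held a median of 7, 7, 8 and 9 of the 10 genes from E10.5 to E13.5. Progenitors had a median of 5887, 4013, 4576 and 4042 genes at 1 RPKM or more from E10.5 to E13.5. Their estimated median depth was 1.33, 0.716, 1.68 and 1.68 M reads, so the E11.5 shares come from the shallowest libraries. The files hold no counts, so cells could not be brought to 1 common depth, and stage cannot be told apart from the set of libraries that holds it, since the letter in the cell titles changes with stage.

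**Figure D4:**
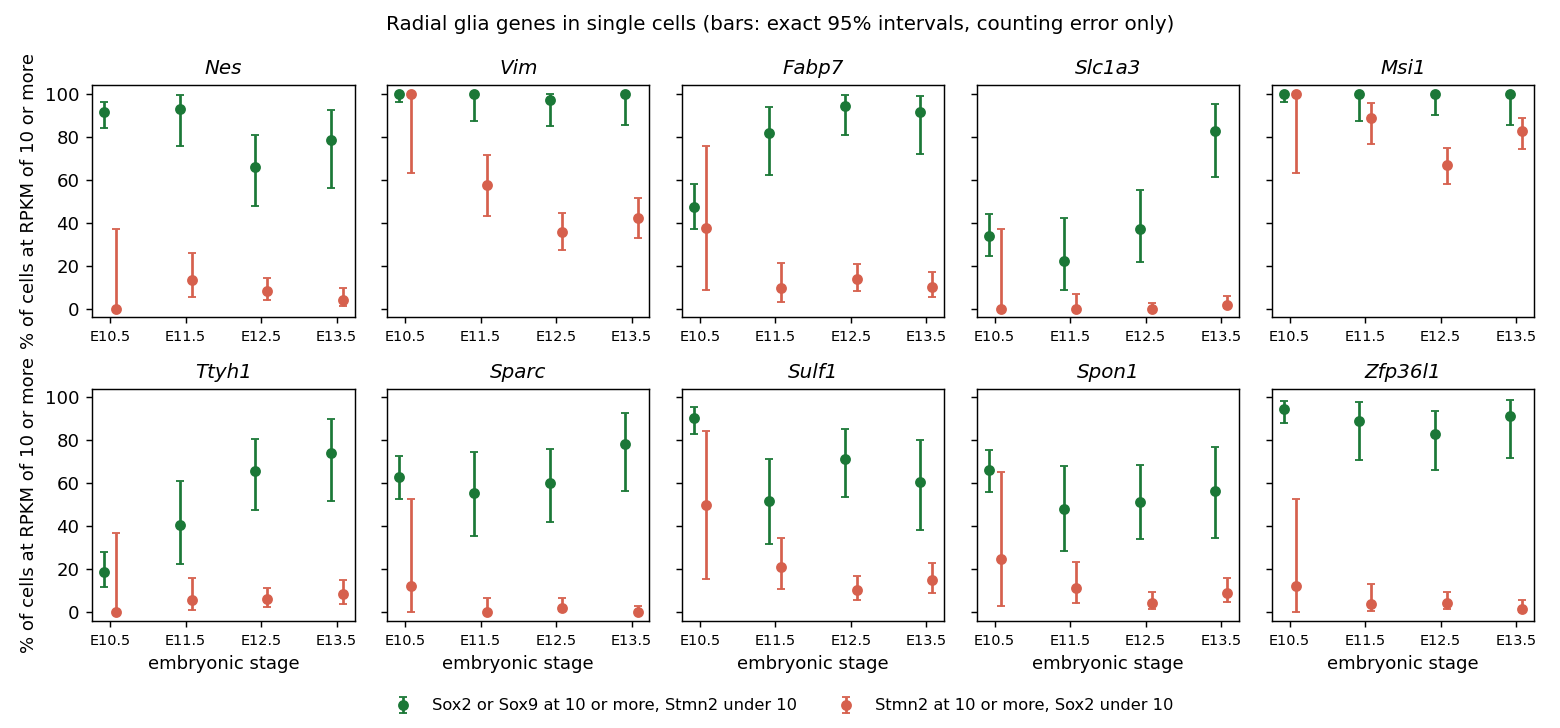
Percent of single cells with each gene at 10 RPKM or more, by embryonic stage, in cells with Sox2 or Sox9 and without Stmn2 (green) and in cells with Stmn2 and without Sox2 (red). Points are shares and bars exact 95% intervals for counting error. Fabp7, Slc1a3 and Ttyh1 are higher at E13.5 than at E10.5 in the green gate, and 8 of the 10 genes stay under 25% in the red gate from E11.5 on.

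In the neuron gate most of the 10 genes were present in few cells. At E13.5, Sparc was present in none of them (0%, up to 3.05%), Slc1a3 and Zfp36l1 in 1.68% each (0.2 to 5.94%) and Nes in 4.20% (1.38 to 9.53%). Ttyh1 was present in 8.40%, Spon1 in 9.24%, Fabp7 in 10.1% and Sulf1 in 15.1%. Msi1 stood apart at 82.4% (74.3 to 88.7%), with a median of 74.7 RPKM against 407 in progenitors of that stage. Vim was present in 42.02% of them (33.03 to 51.4%), but in 8 of 8 at E10.5 and 57.7% at E11.5 (43.2 to 71.3%), with medians of 280 and 40.7 RPKM. A cell of the neuron gate held a median of 3, 2, 1 and 2 of the 10 genes from E10.5 to E13.5.

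Among E10.5 progenitors, cells with Lmx1a present (72) and absent (23) were set side by side, since the labels of single cells give no GFP class. Slc1a3 was present in 43.1% (31.4 to 55.3%) with Lmx1a and 4.35% (0.11 to 21.9%) without. Sulf1 was present in 97.2% (90.3 to 99.7%) with and 69.6% (47.1 to 86.8%) without, with medians of 392 and 95.96 RPKM. Both genes were higher with GFP in the E10.5 pools. In the other direction, Fabp7 was present in 40.3% (28.9 to 52.5%) with Lmx1a and 69.6% (47.1 to 86.8%) without, with medians of 0 and 492 RPKM, and Ttyh1 in 9.72% (up to 19.01%) and 47.8% (26.8 to 69.4%). Fabp7 was also lower with GFP in the E10.5 pools, whereas the Ttyh1 pools differed by -0.11 ± 0.35. Median depth was 1.40 M reads with Lmx1a and 0.966 without, and median genes per cell 5910 and 5812.

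At later stages the split by Lmx1a had small groups. Slc1a3 was present in 3 of 20 E12.5 progenitors with Lmx1a (3.21 to 37.9%) and in 10 of 15 without (66.7%, 38.4 to 88.2%), the reverse order of E10.5. At E13.5 it was present in 9 of 12 with and 10 of 11 without, with intervals that overlap. Fabp7 was present in 19 of 20 and 14 of 15 at E12.5, and in 11 of 12 and 10 of 11 at E13.5.

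Split by Mki67 at E10.5, Fabp7 was present in 58.3% of 60 progenitors with it (44.9 to 70.9%) and 28.6% of 35 without (14.6 to 46.3%). Ttyh1 was present in 26.7% (16.1 to 39.7%) and 5.71% (0.70 to 19.2%), and Slc1a3 in 15 of 60 (14.7 to 37.9%) and 48.6% (31.4 to 66.01%). The intervals overlap for all 3 genes. Cells of 1 stage are 1 sample, so these shares carry no test.

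Across E10.5 progenitors, the pair of genes with the highest r of log2 values was Fabp7 and Ttyh1 (0.53, 95 cells). Sulf1 and Spon1 followed (0.51), and the lowest was Fabp7 and Sulf1 (-0.33). Of the pairs closest in the pools, Nes with Vim had r of 0.02, Vim with Zfp36l1 -0.07 and Nes with Zfp36l1 0.02. At E13.5 these pairs had r of 0.47, 0.38 and 0.61. From E10.5 to E13.5 the median r over the 45 pairs was 0.07, 0.22, 0.32 and 0.45, over 95, 27, 35 and 23 cells. At E13.5 the highest was Slc1a3 with Zfp36l1 (0.69), and the lowest Msi1 with Spon1 (-0.08). These cells share a stage, and their values share each cell's depth.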

How the data were processed

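Smart-seq2 cDNA was tagmented with Nextera XT, per the labels. STAR 2.3.0 and mm10 are named in the submitters' processing notes; the annotation, filters and read counter were not given in the sources used here. Pool values were deposited as RPKM. The deposited values of cells are log2 values, formed by the authors as log2(RPKM + 0.001) as their lowest value shows, and were turned back into RPKM. No pair of columns was identical. Depth was estimated from the step between low RPKM values, of which a median of 34.1% (pools) and 34.7% (cells) were within 0.05 of whole reads, where 10% would be by chance. For a 2 kb transcript 10 RPKM is about 55.1 reads in the median pool, and 27.3 in the median cell. There were 137, 90, 178 and 145 cells from E10.5 to E13.5.

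The groups of pools were the 2 stages by the 2 GFP classes. Genes at 1 RPKM or more in at least 6 pools (15871, all 10 members among them) were fitted as log2(RPKM + 1) in limma 3.58.1 (R 4.3.3), with 4 group means in 1 model, moderated variances with a trend and Benjamini-Hochberg adjustment. On simulated data for the E13.5 GFP comparison the fit recovered 47% of 100 genes changed 2-fold and 82% of 100 changed 4-fold, with 5 false calls among 134. Fold changes of low genes are understated on this scale.

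Members, gene lists (neural progenitor, late radial glia and astrocyte, family members, pan-neuronal, cell cycle, floor plate, mesenchyme and pericyte, endothelium, microglia and macrophage, red blood cell), gates and motifs were chosen with earlier results of these data known. Named besides the 10 were all family members, the 3 most like genes of each member, and genes given to describe a gate or a group of libraries. Of the progenitor and glial lists some called genes were named by the size of their difference, with a mean of at least 10 RPKM in the higher group. Not every called gene of these lists that qualifies is named. For the remaining lists only counts and summed levels are given. All 8 floor plate genes were called higher with GFP at both stages, where 4.51% of all genes were at E10.5 and 3.42% at E13.5. That list holds Lmx1a, whose reporter defined the GFP classes. Gene positions are from the GENCODE annotation of GRCm38 and promoters from RefSeq. Shares of cells carry exact 95% Clopper-Pearson intervals.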

Additional observations from a re-analysis of the deposited data

Results flagged for a closer look

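In 3 of the 40 sets of 6 pools examined (10 genes in 4 groups) 1 pool lay far from the other 5, and chance alone flags about 1 set in 20. Msi1 had 105.2 RPKM in replicate 6 of the E10.5 GFP positive pools, against 68.3 to 80.4 in the others. Ttyh1 had 29.4 RPKM in replicate 5 of the E10.5 GFP negative pools, against 6.04 to 14.5. Spon1 had 167.2 RPKM in replicate 2 of the E10.5 GFP positive pools, against 99.9 to 122.6.

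The signed log2 GFP difference changed from E10.5 to E13.5, by the limma interaction term, for Fabp7 (3.22), Sparc (2.41), Nes (1.19), Zfp36l1 (0.95) and Vim (0.83). For Fabp7 it turned from -1.96 to 1.26, so its size was smaller at E13.5, and the Sparc estimate turned from -0.70 to 1.71. These genes were chosen with such differences known.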

How the results depend on the processing

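No paired analysis was possible because the labels give the pools no replicate numbers or embryos. Without the 7 GFP negative pools with over 1% globin, an alternative added after the data were seen, the E10.5 GFP comparison called 1 of the 10 genes (4 in all pools) and 430 of all genes (2086). Its stage change called 0 of the 10 (5) and 199 genes (925), the E13.5 GFP comparison 7 of the 10 (10) and 705 genes (1135), with Fabp7 (0.95), Ttyh1 (0.99) and Spon1 (0.89) no longer called, and the stage comparison of GFP negative pools 2819 genes (7388), where Fabp7 (-1.45) and Sulf1 (-0.93) were no longer called. With only the 2 groups compared, 7 of the 10 were called at E10.5, with Nes and Zfp36l1 added as higher and Sparc as lower with GFP. With 1 pool left out, the number of the 10 called at E13.5 with GFP ranged from 6 to 10. The share of all genes called in these fits is not given here, so nothing is read from either count. It was 6 when GFP positive replicate 3 or 4 or GFP negative replicate 1 or 5 was left out. Over 10 other settings, among them offset, filter and normalisation, the E13.5 GFP call was lost for Fabp7 in 4, Ttyh1 in 3, Msi1 in 2 and Spon1 in 1. The E10.5 GFP call was lost for Slc1a3 in 3 and gained for Nes in 4 and for Sparc and Zfp36l1 in 1 each. The stage change of the Nes GFP difference lost its call in 1 of 9. The change with stage of the Notch2 GFP difference was -0.0229 with log2(RPKM + 10), against 1.28. Quantile normalisation moved the median of all genes in the stage comparison of GFP negative pools from -0.11 to -0.01. None of the 10 genes changed the sign of a called difference in any setting run. In single cells, 5 of the 10 genes had a larger share at E13.5 than at E10.5 in the Sox2 gate, and 4 to 6 under the other gates and thresholds run. The gate with Tubb3 under 100 RPKM left too few E13.5 cells, and E12.5 cells with titles starting with F too few cells, for a value. Depth is estimated, so no call was weighed by counts, and groups of 6 to 23 late progenitors limit the shares.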
